A study of Mus musculus with 14 samples.

Results

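Dendritic cells were sought in single-cell RNA libraries of white nodules from 7 mice by a rule on raw UMIs (unique molecular identifiers, each counting 1 captured RNA molecule). A cell was selected when at least 2 of the 6 genes Flt3, Xcr1, Clec9a, Siglech, Cd209a and Zbtb46 had a UMI, when it had no UMI of Cd3d, Cd3e or Cd3g, of Cd79a, Cd79b or Ms4a1, or of C1qa, C1qb or C1qc, and when at most 10% of its UMIs were mitochondrial. The rule found 76 cells among the 75548 that passed the mitochondrial limit. The name of the class held for part of them only. At least 4 of 8 other genes that dendritic cells share were detected in 38 of the 76 cells. Of the remaining 38 cells, 21 carried the genes of another class, such as red cell precursors, haematopoietic progenitors or endothelium. All 76 are therefore called the selected cells below.

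The nodules came from C57BL/6J mice with floxed Eif3e, which encodes a subunit of eIF3, a factor that starts translation, and Cre expressed from the Ighg1 locus (Eif3e fl/fl Cγ1Cre, or cKO), so that deletion was directed to activated B cells and not to dendritic cells. Each mouse gave 1 library, and no nodule-free control was profiled. The labels divide the mice by the receptor sequenced beside the RNA. The 5 BCR nodules came from mouse #27 (liver, 12 months), mouse #29 (lung, 12 months), mouse #31 (spleen, 13 months), mouse #33 (thymus, 16 months) and mouse #34 (lung and thymus, 9 months), and the 2 TCR nodules from mouse #30 (liver, 14 months) and mouse #32 (spleen, 12 months). Mice #29, #31, #32 and #34 also carried the Rosa26-YFP reporter, and mice #27, #30 and #33 did not. The nodule labelled #27 was a secondary tumor. By the paper, it had been transplanted from a primary nodule of that mouse, and such tumors grew in Rag2-/- recipients. Its selected cells may therefore be of the recipient and not of the cKO genotype. Which animal the age of 12 months belongs to could not be told. Mouse #34 was a mixed bone marrow chimera of JHT and cKO marrow, in which most immune cells other than B cells descend from the JHT marrow. Liver and spleen each gave a BCR and a TCR nodule, while lung and thymus gave BCR nodules only. With 1 nodule per mouse, organ and age cannot be told apart from the mouse. Libraries held 19264039 to 123456962 UMIs, and each pair of libraries had between 96 and 286 cell barcodes in common. Of the selected cells, 6 had a barcode that occurred in another library, in no case in another selected cell.

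Dendritic cells are bone marrow-derived antigen-presenting cells that depend on Flt3 ligand, take up material in tissues and carry it on MHC molecules to T cells. Conventional type 1 cells (cDC1) express the chemokine receptor Xcr1 and the dead-cell receptor Clec9a and excel at presenting captured antigen to CD8 T cells, conventional type 2 cells (cDC2) mainly present to CD4 T cells, and plasmacytoid cells, marked by Siglech, are known for type I interferon. Zbtb46 is a transcription factor of the conventional lineage, while Flt3 is also made by early haematopoietic and lymphoid progenitors.

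The targeted gene was read as the share of Eif3e (ENSMUSG00000022336) among the UMIs of all eIF3 subunit genes, which corrects for the general output of a cell. In the selected cells that share was 6.25% in mouse #27 (1 of 16 UMIs), 22.2% in mouse #29 (2 of 9), 3.73% in mouse #31 (5 of 134), 5.71% in mouse #33 (18 of 315), 7.14% in mouse #34 (2 of 28), 4.19% in mouse #30 (8 of 191) and 4.68% in mouse #32 (138 of 2948). B cells, the class to which Cre is directed, had 4.79%, 6.24% and 1.99% in mice #31, #33 and #30, where both classes held at least 10 cells. The paper reports that tumor B cells lacked YFP and had normal eIF3e protein. These B cells therefore need not carry the deletion, and this is not a comparison of deleted with intact cells. The log2 ratio of selected cells to B cells was 0.20 ± 0.77 (SD, n = 3; exact two-sided sign-flip test p = 1, smallest possible p 0.25), with a lower share in the selected cells of 2 of 3 mice. Against macrophages with C1q UMIs, which had 3.79%, 4.59% and 8.41% in mice #31, #33 and #32, it was -0.18 ± 0.60 (SD, n = 3; exact sign-flip p = 0.75). Eif3e thus differed between the classes by less than the spread over mice. Counts per gene do not show whether the floxed segment was deleted, so this is no measure of recombination.

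Selected cells were rare in every nodule. They numbered 4, 1, 11, 14 and 3 in the BCR nodules of mice #27, #29, #31, #33 and #34, and 10 and 33 in the TCR nodules of mice #30 and #32. As a share of the cells passing the mitochondrial limit, the lowest value was 0.00710% (exact binomial 95% interval 0.000180 to 0.0396%) in the lung nodule of mouse #29 and the highest 0.247% (0.170 to 0.346%) in the spleen nodule of mouse #32. The thymus nodule of mouse #33 had 0.140% (0.0767 to 0.235%), the spleen nodule of mouse #31 0.0968% (0.0483 to 0.173%) and the liver nodule of mouse #30 0.0954% (0.0457 to 0.175%). Mouse #27 had 0.0426% (0.0116 to 0.109%) and mouse #34 0.0437% (0.00901 to 0.128%). These intervals cover counting error only. Mouse #32 stood above mice #27, #29 and #34 beyond those intervals, whereas mice #31, #33 and #30 overlapped one another.

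**Figure D1:**
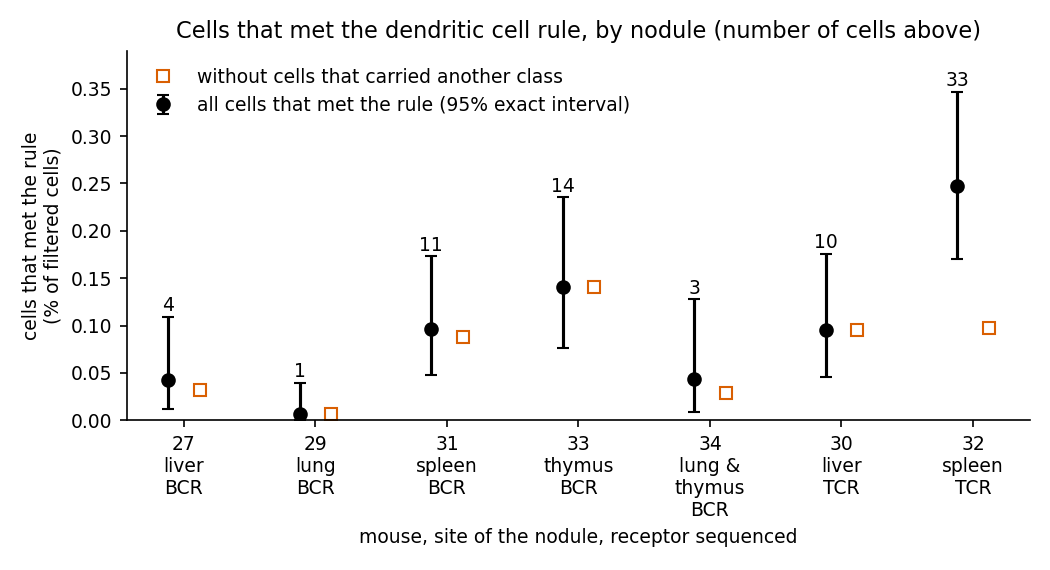
Selected cells as a percentage of the cells passing the mitochondrial limit (vertical axis) in each mouse (horizontal axis), with exact binomial 95% intervals and the number of selected cells. Orange squares leave out cells that carry genes of another class, which lowers mouse #32 from 0.247% to 0.0972% and puts it beside mice #31, #33 and #30.

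The share was 0.171 ± 0.107% (SD, n = 2) in TCR and 0.0661 ± 0.0524% (SD, n = 5) in BCR nodules, a difference of 0.105 percentage points. This difference was within the spread between mice (p = 0.286 by an exact permutation test, two-sided, with 21 splits and a smallest possible p of 0.0952). Mouse #32 carried most of it, since without that nodule the difference was 0.0293 percentage points (p = 1). The difference was 0.0370 percentage points (p = 0.381) when cells with genes of another class were left out. Depth moved with the outcome. Selected cells of mouse #32 had a median of 22116 UMIs against 4244 in that library, and when every cell was thinned to 1000 UMIs only 15 selected cells remained in all and the difference was 0.0197 percentage points (p = 0.286).

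Most selected cells were at the threshold of the rule. Exactly 2 of the 6 markers were detected in 61 cells, 3 in 10 and 4 in 5, and 2580 further cells met the exclusions with only 1 marker. The pair Flt3 and Zbtb46 without any other marker accounted for 40 of the 76 cells, 23 of them from mouse #32, 1 from mouse #29, 4 from mouse #33 and 3 from each of the other 4 mice. Xcr1 or Clec9a, without Cd209a or Siglech, marked 30 cells, of which mice #27, #31, #33, #30 and #32 held 1, 8, 10, 2 and 9. Cd209a was found in mouse #30 alone, in 2 cells without and 3 cells with Xcr1 or Clec9a, and Siglech in 1 cell of mouse #32 alone. The nodules of mice #31 and #33 were thus the ones in which Xcr1 or Clec9a marked most of the selected cells. As these genes chose the cells, their distribution is given as a description.

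Summed over the selected cells, Flt3 had 18 UMIs in 8 cells of mouse #31, 29 in 10 cells of mouse #33, 27 in 9 cells of mouse #30 and 44 in 28 cells of mouse #32. Zbtb46 had 11 UMIs in 6 cells, 10 in 8, 21 in 8 and 44 in 30 cells of the same mice. Xcr1 reached 26 UMIs in 5 cells of mouse #31 and 16 in 7 cells of mouse #33, against 1 UMI in mouse #30 and 9 in 5 cells of mouse #32. Clec9a had 20 UMIs in 7 cells, 26 in 9, 13 in 4 and 15 in 5 cells. Mouse #32 had the most UMIs of Flt3 and Zbtb46, but its selected cells also held the most UMIs of all genes. These were 784031, against 61727, 131877 and 77208 in mice #31, #33 and #30. Scaled to a common total of UMIs (CPM), both genes were lowest in mouse #32 among these mice. Flt3 was at 56.1 CPM there, against 292, 220 and 350 in mice #31, #33 and #30. Zbtb46 was at 56.1 CPM, against 178, 75.8 and 272. The Xcr1 UMIs lay mainly in mice #31 and #33.

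Flt3 and Zbtb46 UMIs were not particular to the selected cells. Among B cells, Flt3 was detected in 50.4%, 10.5%, 31.9%, 40.2% and 79.1% in the BCR mice #27, #29, #31, #33 and #34, and in 4.35% in mouse #30. Zbtb46 was detected in 0.548% (mouse #34) to 17.4% (mouse #30) of B cells. T cells had Flt3 in at most 4.19% and Zbtb46 in 2.12 to 10.5%, and macrophages with C1q UMIs had Flt3 in at most 11.4% and Zbtb46 in at most 5.56%. A single UMI of each therefore also occurred in cells of other classes, and Flt3 was frequent in B cells of the BCR nodules. Of 749 cells with at least 2 markers, 673 were excluded, 628 of them with UMIs of Cd79a, Cd79b or Ms4a1 and 522 on those UMIs only. Flt3 with Zbtb46 was the pair in most of the excluded cells with B cell UMIs, for example in 251 of mouse #33, 172 of mouse #34 and 115 of mouse #27. A receptor sequence had been called in 238 of the excluded cells and in 0 of the 76 selected cells, which allows a share of up to 3.95%. How many dendritic cells were excluded for a stray B cell UMI was not tested.

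**Figure D2:**
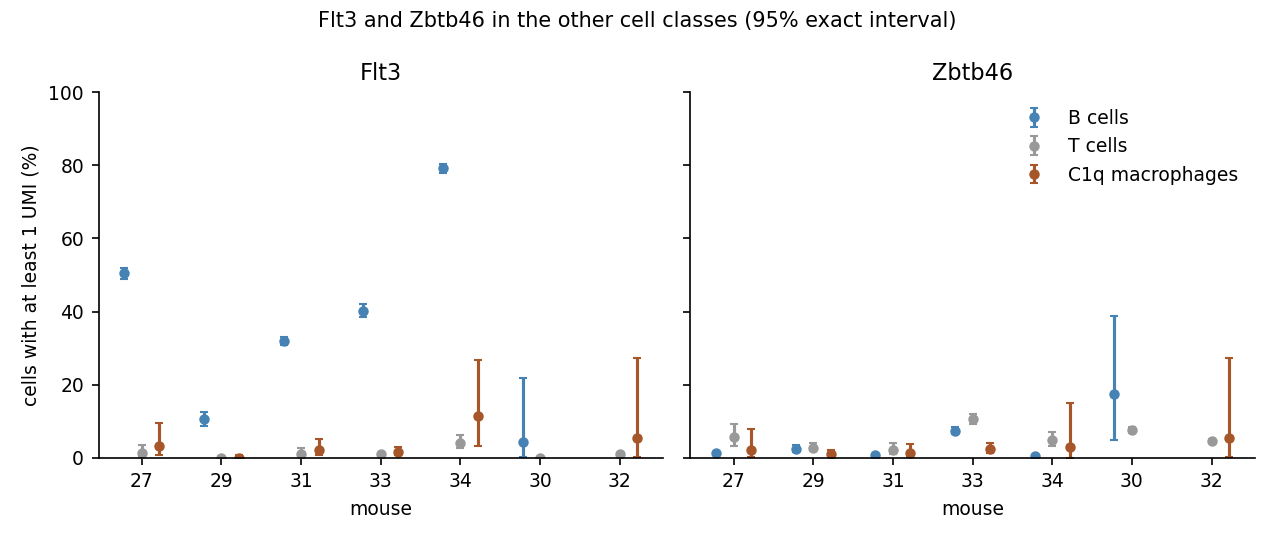
Percentage of B cells, T cells and macrophages with C1q UMIs (vertical axis) that had at least 1 UMI of Flt3 or of Zbtb46, by mouse (horizontal axis). Flt3 reached 79.1% of B cells in mouse #34, while Zbtb46 stayed at or below 17.4% in all 3 classes.

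Whether the selected cells were dendritic cells was checked with 8 genes the rule did not use, Itgax (the CD11c integrin chain), Cst3 (cystatin C), Plbd1, Naaa, Wdfy4 (needed for cross-presentation), Irf8 (a transcription factor of cDC1 and plasmacytoid cells), H2-Ab1 (an MHC class II chain) and Cd74 (its invariant chain). Of these, Wdfy4, Irf8, H2-Ab1 and Cd74 are also B cell genes. The median number detected per cell was 7 in mouse #33, 6 in mouse #30 and 5 in mouse #31, but 3 in mice #29 and #34 and 2 in mice #27 and #32. At least 4 were detected in 14 of 14 cells of mouse #33, 10 of 10 of mouse #30, 8 of 11 of mouse #31, 1 of 3 of mouse #34, 5 of 33 of mouse #32, 0 of 4 of mouse #27 and 0 of 1 of mouse #29. By marker, this held for 22 of the 30 cells with Xcr1 or Clec9a and for 10 of the 40 with Flt3 and Zbtb46 only. The level of 4 genes was chosen after the values were seen and carries no test. Cells with only 1 marker reached it in 30.7% of cases in mouse #33 and in 2.36 to 9.16% in the other mice. T cells reached it in at most 2.82%, and B cells, through the genes they share, in 21.7 to 70.3%. The percentage of macrophages with C1q UMIs that reached it is not given here. In the test of summed levels against them below, 0 of the 8 genes passed. There 4 lay above 0, with a median log2 fold change of 0.23. The 8 genes were thus not shown to be particular to dendritic cells among myeloid cells.

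**Figure D3:**
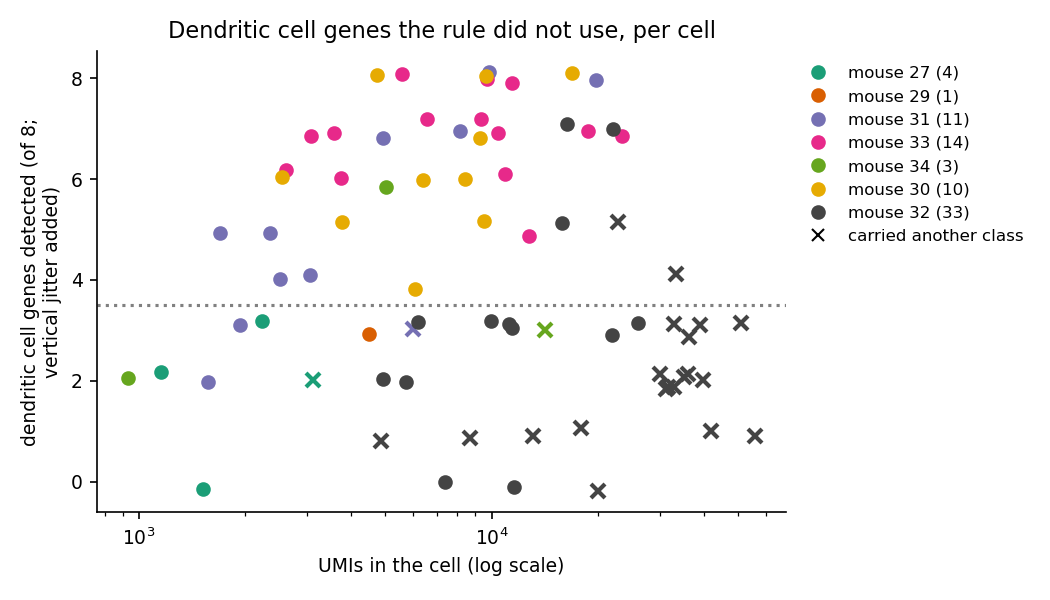
Number of the 8 shared dendritic cell genes detected (vertical axis) against the UMIs of each selected cell (horizontal axis, log scale), by mouse, with the dotted line between 3 and 4 genes and crosses for cells that carry genes of another class. All cells of mice #33 and #30 lie above the line, and 28 of the 33 cells of mouse #32 lie below it, with a median of 24017 UMIs.

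The level of a gene is given as CPM, its UMIs in the summed selected cells of a mouse scaled to a common total. Cst3 was at 15860.2, 12034 and 6929 CPM in mice #31, #33 and #30, against 671, 1445 and 0 CPM in mice #32, #34 and #27. The single selected cell of mouse #29 had 9099 CPM. Plbd1 had 1361, 834 and 1425 CPM in mice #31, #33 and #30, and 72.7 in mouse #32. Naaa had 437, 508 and 453 CPM against 26.8, and Irf8 1069 (mouse #31), 561 (mouse #33) and 402 (mouse #30) against 56.1. Itgax had 81.0, 98.6 and 117 CPM in mice #31, #33 and #30 and no UMI in any of the 33 cells of mouse #32. For all 5 genes mice #31, #33 and #30 were high and mouse #32 was low.

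Many selected cells of mouse #32 carried genes of haematopoietic progenitors and red cell precursors. These genes did not lead the ranking by ratio to the other cells of that library. Cd74 (1229.5 against 110 CPM) and H2-Aa (432 against 48.0 CPM) came first, with Pf4 at rank 3 and Cd34 at rank 10. Car2, the carbonic anhydrase of the erythroid series, had 1739 UMIs in 26 of the 33 cells and Hbb-bs (a β-globin) 1357 in 12 cells. The granule protease genes Mpo, Ctsg and Prtn3, which mark myeloid precursors, had 163 UMIs in 7 cells, 215 in 8 and 111 in 7. Kit, the stem cell factor receptor, had 81 UMIs in 22 cells, Gata2 57 in 19, Cd34 63 in 10, and the megakaryocyte genes Pf4 274 in 4 cells and Itga2b 53 in 11. Car2, Kit and Gata2 thus occurred in most cells of this nodule, and the other genes in fewer. Kit did not set the nodule apart, as it was at 103 CPM here and at 197 CPM in mouse #33, in 10 of 14 cells. Mki67 and Top2a, which cells make in the cell cycle, had 509 UMIs in 26 cells and 269 in 23. In the same nodule 20 of 33 cells carried another class, that is, at least 3 genes of a list for that class and more than of the 8 shared genes. Of the 28 cells with fewer than 4 shared genes, 14 had at least 3 erythroid genes, 13 at least 3 progenitor genes and 17 at least 5 of 10 proliferation genes. Their median of 24017 UMIs was close to the 22116 of the cells with at least 4. In mouse #31 the medians were 1936 UMIs in cells with fewer than 4 and 3990.5 in those with at least 4. The part of depth in the missing genes was not tested. No doublet caller was run, and whether high-UMI cells held 2 cells was not tested.

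Only 3 of the 33 cells of mouse #32 had at least 4 shared genes and did not carry another class as defined above, which allows some genes of one. One of 22116 UMIs carried 4 of the rule's markers together with 243 UMIs of Cst3, 24 of Irf8 and 617 of the MHC class II genes. The next of 16333 UMIs, with Flt3, Clec9a and Zbtb46, had 138 UMIs of Cst3 and 377 of MHC class II genes. A cell of 15820 UMIs with Flt3 and Zbtb46 had 42 and 497. The single cell with Siglech in the series, which had 1 UMI of it, had 5 of 12 further plasmacytoid genes and 8 of 11 interferon-response genes, together with 83 UMIs of Mpo and 6 genes of the progenitor list. Of the 12 plasmacytoid genes, which include several that other cells use, 27 of the 76 cells had at least 3 and 9 had none, while Ly6d, Klk1 and Atp1b1 had no UMI in any. With 1 such cell, which also carried another class, no plasmacytoid group was named. Tcf4, the transcription factor of that lineage that B cells and others also use, was at 162, 98.6, 130 and 85.5 CPM in mice #31, #33, #30 and #32.

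In the mice with few selected cells other lineages were also represented. In mouse #34 the cell with the most UMIs, 14122, was led by lymphatic endothelial genes, with 155 UMIs of the hyaluronan receptor Lyve1, 27 of Prox1 and 20 of Cdh5. Another cell of 5015 UMIs had 6 shared genes, 341 UMIs of MHC class II genes and 18 of Il1b. The 4 cells of mouse #27 had no Cst3 UMI, and 1 of them carried 3 B cell genes. The nodules labelled #27 and #34 are also those from the recipient and the chimera, and their 7 selected cells enter no test of gene levels below.

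In mice #31 and #33 the other genes of cDC1 accompanied Xcr1 and Clec9a. The 12 further cDC1 genes summed to 3564 CPM in mouse #31, 2798 in mouse #33 and 2435 in mouse #30. In mouse #32 the 12 genes summed to 1014, of which most came from Cd24a, a surface protein that red cell precursors make too, with 614 of 795 UMIs. Cadm1, an adhesion molecule of cDC1, was at 275, 152 and 64.8 CPM in mice #31, #33 and #30, and had no UMI in mouse #32. Batf3, the factor cDC1 require, was at 16.2, 106, 90.7 and 7.65 CPM in the same order. As a share of a cell's own UMIs the 12 genes had medians of 0.238%, 0.391%, 0.0944% and 0.0316% in mice #31, #33, #30 and #32. Mice #31 and #33 stood above mice #30 and #32 on both scales. By share of UMIs the highest single cell was in mouse #30 at 0.823%, beside 0.727% in mouse #33, 0.570% in mouse #31 and 0.461% in mouse #32.

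Mouse #30 held the selected cells with Cd209a, a C-type lectin of cDC2 and monocyte-derived cells. Its 5 positive cells had 20 UMIs of Cd209a, 15 of them in 1 cell of 9491 UMIs that also had Flt3, Clec9a and Zbtb46. The lectin genes Clec10a and Mgl2, also made by cDC2, had 20 UMIs in 4 cells and 9 in 2. A cell of 6404 UMIs with Cd209a held 10 of the Clec10a and 7 of the Mgl2 UMIs, together with 28 UMIs of the chemokine Ccl17 and 20 of Il1b. Genes of cDC1 and cDC2 therefore met in 3 cells of this nodule, which were kept apart as mixed. With 2 and 3 cells, neither group could be compared with the Xcr1 or Clec9a cells by a test.

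Interferon and chemokine genes were high in the same nodule. Ifnb1, the gene of interferon β, had 97 UMIs in 4 selected cells of mouse #30, of which 43 and 48 lay in 2 mixed cells, and 13 UMIs in 3 cells of mouse #32. Both mixed cells had 135 UMIs of the interferon-response list, and of the chemokine Ccl4 they had 241 and 191. The level of the list was 4715 CPM in mouse #30, against 713 in mouse #31, 667 in mouse #33 and 327 in mouse #32. Ccl4 was at 9092 CPM in mouse #30 and at 113, 288 and 194 in mice #31, #33 and #32. Ifit2, an interferon-induced gene, was at 1697 CPM against 146, 7.58 and 43.4. A few cells carried these totals, and cells of the same nodule differed widely, since the 2 cells with Xcr1 or Clec9a had 224 and 1 UMI of Ccl4 at 16901 and 9618 UMIs.

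MHC class II genes followed the shared dendritic cell genes. The 10 genes summed to 46608, 39757 and 18819 CPM in mice #31, #33 and #30, to 20476, 8877 and 7848 CPM in mice #34, #29 and #27 with few cells, and to 2453 CPM in mouse #32. The median share of a cell's UMIs was 1.99%, 3.62%, 1.47% and 0.0301% in mice #31, #33, #30 and #32. Within mouse #32 it was 2.31% in the 5 cells with at least 4 shared genes, of which H2-Ab1 and Cd74 are themselves class II genes, and 0.0199% in the other cells. H2-Ab1 was at 5443, 5884, 2862 and 347 CPM in mice #31, #33, #30 and #32, and Cd74 at 24706, 17532, 7732 and 1229.5 CPM. Mouse #32 was the lowest of these mice for both genes.

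**Figure D4:**
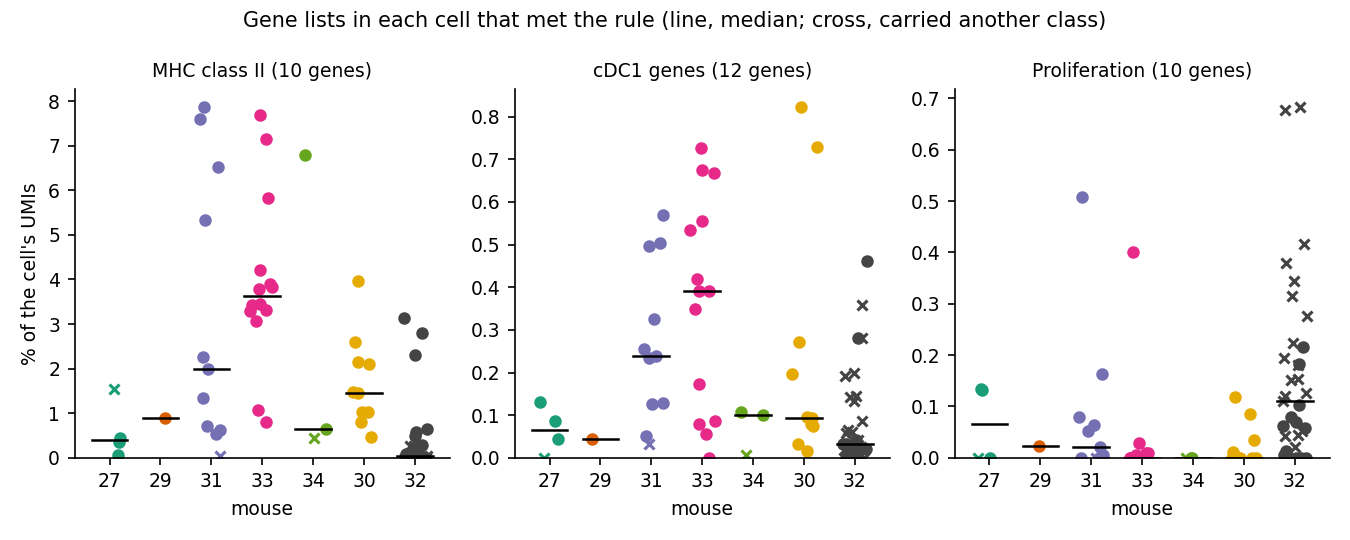
Percentage of each selected cell's UMIs (vertical axes) in MHC class II genes (10), further cDC1 genes (12) and proliferation genes (10), by mouse (horizontal axis), with the median of each mouse as a line. For MHC class II genes the median was 3.62% in mouse #33 and 0.0301% in mouse #32, where the proliferation genes were highest at 2045 CPM over all its cells.

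Costimulatory genes were lower in mouse #32, and inhibitory genes were mixed. Cd86, a ligand of CD28, was at 470, 986, 855 and 19.1 CPM in mice #31, #33, #30 and #32. Cd80 was at 211, 190, 155 and 1.28 CPM, and Cd40 at 48.6, 60.7, 64.8 and 5.10 CPM. Cd83, a maturation-associated surface protein, was at 518, 296, 829 and 26.8 CPM. The selected cells of mouse #32 were lowest for all 4 genes. Cd274, which encodes the checkpoint ligand PD-L1, was at 356, 394, 337 and 65.0 CPM in these mice. Havcr2, the receptor TIM-3 that cDC1 also carry, was at 502, 364, 337 and 59.9 CPM. Mice #31, #33 and #30 lay close together for both genes, above mouse #32. Lgals9, the gene of galectin-9, went the other way, with 189 UMIs in 26 cells of mouse #32 (241 CPM) against 0, 15.2 and 13.0 CPM in mice #31, #33 and #30. Of the 8 inhibitory genes the median detected per cell was 2 in mouse #32 and 1, 2 and 1.5 in the same 3 mice, whose selected cells had fewer UMIs.

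Of 16 cytokine genes, 26 of the 76 selected cells had at least 3 and 11 had none, and the median was 3 in mouse #32 against 1, 2 and 1.5 in mice #31, #33 and #30. These are numbers of genes detected and not levels. The selected cells of mouse #32 also had the most UMIs, with a median of 22116 against 3066, 9514.5 and 7404. By level, Il1b was lowest in mouse #32, at 56.1 CPM against 340, 1228 and 402. Il12b, a subunit of a cytokine that drives T helper 1 responses, had 22 UMIs in 1 cell of mouse #31 and 5 in 2 cells of mouse #33, with none in mice #30 and #32. Il1b, an inflammatory cytokine, had 162 UMIs in 7 cells of mouse #33, where it reached 58 UMIs in a cell of 18735 UMIs and 33 in a cell of 10894, both marked by Flt3 and Zbtb46 only. Those cells also had 32 and 29 UMIs of Cd86, and another cell of this pair had 31. In 8 of the 10 cells of this nodule with Xcr1 or Clec9a, Cd86 had between 0 and 2 UMIs. Cells of mouse #33 with the Flt3 and Zbtb46 pair thus held most of its Cd86. Il10 had 13 UMIs and Il4 15 UMIs in 9 cells, both in mouse #32 only, and Ido1, Cd70 and Tlr7 had no UMI in any of the 76 cells.

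Chemokine genes differed between the nodules. Cxcl9, an interferon γ-induced chemokine that attracts T cells, was at 956 and 538 CPM in mice #31 and #33, against 38.9 and 7.65 CPM in mice #30 and #32. Cxcl10 was at 810, 45.5, 2357 and 250 CPM, and Cxcl16 at 437, 167, 90.7 and 6.38 CPM, in mice #31, #33, #30 and #32. Ccl17, which attracts cells with the receptor CCR4, had 97 UMIs in 4 cells of mouse #30. Cxcl9 and Cxcl16 were higher in both BCR than in both TCR nodules, and Cxcl10 and Ccl17 were not.

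Few cells had the genes of migratory maturation. At least 2 of Ccr7 (the receptor for homing to lymph nodes), Fscn1 (an actin bundler), Ccl22 and Cacnb3 were detected in 2 of 76 selected cells, and 68 had none of the 4. Of 14 further genes that rise with maturation the median was 3 per cell, and 33 of 76 cells had at least 4. The single selected cell of mouse #29 had 6 UMIs of Fscn1, 5 of Ccl22, 15 of Ccl17 and 12 of Cd83. The other, in mouse #32, had 6167 UMIs, 3 of Fscn1, 1 of Ccr7, and 6 of Kit. Ccr7 had 1 UMI in each of mice #31, #33, #30 and #32. The share of such cells differed by 1.52 percentage points between the TCR mice (n = 2) and the BCR mice with at least 10 selected cells (n = 2; exact permutation p = 1), and no levels could be compared.

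Gene levels of the TCR nodules (mice #30 and #32) were compared with those of the BCR nodules with at least 10 selected cells (mice #31 and #33) on UMI sums by edgeR's quasi-likelihood test. Of 1884 genes tested outside the rule, 0 passed an adjusted p of 0.05 (0% called), while 138 had an unadjusted p under 0.05 and DESeq2 called 9. Cxcl9 was lower in both TCR nodules (log2 fold change -5.52, adjusted p = 0.407 by edgeR), with an adjusted p of 0.000117 by DESeq2 and of 2.57e-06 by edgeR with no low-count filter. Leaving out mouse #31, #33, #30 or #32 gave adjusted p values of 0.0225, 0.00886, 0.349 and 0.00340, but each of these fits has 1 nodule in an arm, which is assumed to vary like the other arm, and they are no support for a difference. For Cd74 the log2 fold change was -2.30 (SE 0.95, adjusted p = 0.654), for Cst3 -1.95 (0.731) and for H2-Ab1 -1.89 (0.729). Of 8 MHC class II genes tested none lay above 0 and the median was -1.89, beside 0.04 over all genes. Ccl4 had 4.42 (adjusted p = 0.654) and Ifit2 3.56 (adjusted p = 0.724), and both lay below 0 without mouse #30. None of these passed the test, and in mouse #32 erythroid and progenitor genes moved with the low MHC class II and Cst3 levels, at 4696 and 937 CPM of summed marker level. Their part in the differences was not tested.

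The selected cells were next set against macrophages with C1q UMIs of the same nodule, the closest myeloid class, in mice #31, #33 and #32, where each class had at least 10 cells (221, 534 and 18 macrophages). With the mouse as a block, 78 of 5544 genes passed an adjusted p of 0.05 by edgeR (1.41% called), 5 higher (0.0902%) and 73 lower (1.32%). The macrophages were defined by C1q genes that the rule excludes, and lower macrophage genes go with that choice. Without mouse #31 the test called 0 genes (534 at an unadjusted p under 0.05), and without mouse #32 it called 110, 36 higher and 74 lower, of which 49 were among the 78.

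The 5 genes that rose were Btla, Cbfa2t3, Agpat3, St3gal5 and Strbp. Btla, an inhibitory receptor of lymphocytes and cDC1, was at 292, 235 and 30.6 CPM in mice #31, #33 and #32 against 2.29, 1.28 and 0 in the macrophages (log2 fold change 7.06, SE 0.70, adjusted p = 0.0105). Cbfa2t3, a transcriptional corepressor, rose by 3.87 (adjusted p = 0.0417), Agpat3, a phospholipid acyltransferase, by 3.86 (0.0339), St3gal5, the GM3 ganglioside synthase, by 3.56 (0.0485) and Strbp by 3.04 on the log2 scale (0.0485). All 5 were higher in 3 of 3 mice, and none passed without mouse #31.

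Among the genes that fell were Vcam1, an adhesion molecule, and others with no UMI in the selected cells. Vcam1 was at least 81.9-fold lower, the lysosomal glycoprotein Gpnmb 62.0-fold, the chemokine Ccl6 57.4-fold, Pla2g2d 55.7-fold, Clec4a3 49.4-fold, the scavenger receptor Msr1 44.7-fold, the efferocytosis receptor Mertk 34.8-fold, Arg1 20.9-fold, C3ar1 20.8-fold and Igf1 20.6-fold, each set against the floor of 3 counts over the 3 mice (3.07 CPM). Mouse #32 gave 784031 of the 977635 UMIs behind that floor, and without it the floor was 15.5 CPM and the bounds of these 10 genes ran from 2.20-fold (C3ar1) to 19.7-fold (Vcam1). Of the Fc receptor genes, 3 of 4 tested fell, with a list median of -4.77 beside -0.03 over all genes. Fcer1g, the shared signalling chain, was at 32.4, 265 and 25.5 CPM against 1134, 1696 and 965 (log2 fold change -4.39, adjusted p = 0.0296). Fcgr3 fell by 5.69 (adjusted p = 0.0152) and Fcgr2b by 4.76 on the log2 scale (adjusted p = 0.0154). Of other myeloid genes, Itgam, the CD11b chain, fell by 5.26 (0.0152), Chil3 by 9.09 (0.00806), Csf1r, the macrophage growth factor receptor, by 4.55 (0.0474), Cybb by 3.66 (0.0417) and the factor Zeb2 by 3.35 (0.0457). Adgre1, Fcgr1 and Cd5l had no UMI in any of the 76 cells. The Fc receptor genes that fell were lower in 3 of 3 mice.

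**Figure D5:**
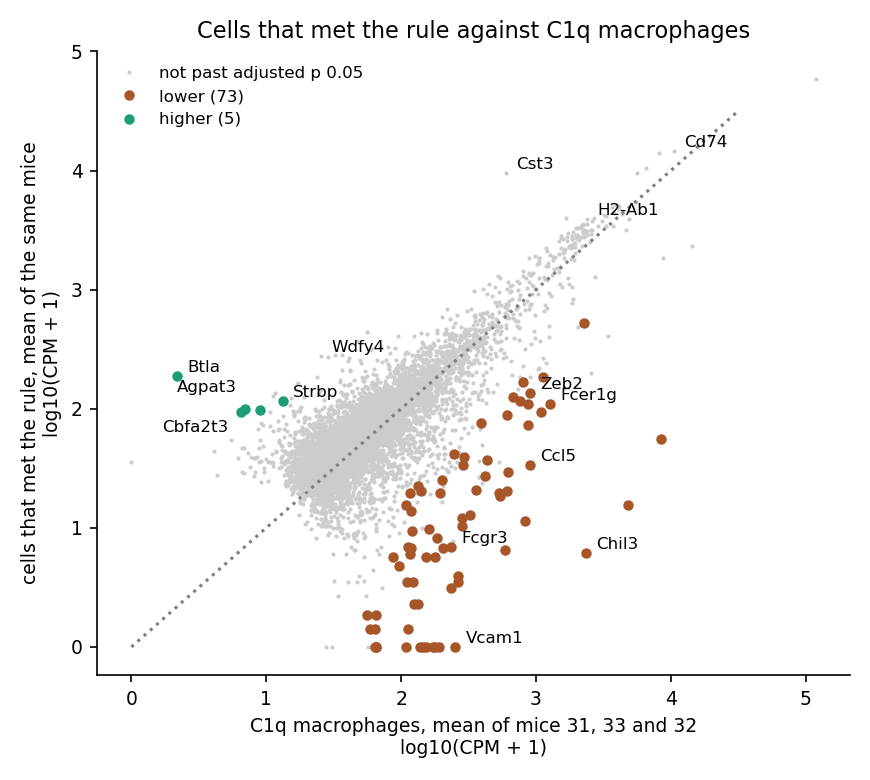
Mean level of each tested gene, as log10(CPM + 1) over mice #31, #33 and #32, in the selected cells (vertical axis) and in macrophages with C1q UMIs (horizontal axis), with the 73 genes that were lower and the 5 that were higher in color. Most genes follow the diagonal, and Btla stands among the few coloured genes above it.

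Ccl5 and some interferon-induced genes were also lower in the selected cells. Ccl5, a chemokine for T cells and others, was at 16.2, 68.2 and 14.0 CPM against 336, 1809.5 and 563 in the macrophages (log2 fold change -5.09, adjusted p = 0.0108). In the interferon-response list 3 of 8 genes fell, 5 did not pass, and the list median was -2.17. These were Rsad2 (-4.59, adjusted p = 0.0234), Isg15 (-2.62, 0.0417) and Ifit1 (-4.06, 0.0429), and the RNA sensor Ifih1 fell with them (-2.52, 0.0429). The interferon genes described above for mouse #30 are outside this comparison, as that nodule had only 2 such macrophages.

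MHC class II and shared dendritic cell genes did not pass the test against macrophages. Of 8 MHC class II genes 0 were called and their median was -0.07. Cd74 was at 24706, 17532 and 1229.5 CPM against 15492, 7458 and 8554, higher in mice #31 and #33 and lower in mouse #32 (log2 fold change -0.31, adjusted p = 0.935). Cst3 was at 15860.2, 12034 and 671 CPM against 903, 523 and 369, higher in all 3 mice (3.15, SE 0.85, adjusted p = 0.156), and passed without mouse #32 (4.21, adjusted p = 0.0295). Wdfy4 was at 324, 417 and 89.3 CPM against 12.6, 35.4 and 25.9 and just missed the threshold (3.35, adjusted p = 0.0507). Cd86 had -0.96 (adjusted p = 0.842), and H2-Ab1 and Plbd1 had -0.08 and -0.18. Without mouse #32 all 3 turned to positive values (0.58, 1.10 and 1.02), and H2-Ab1 and Plbd1 did so without cells of another class (0.57 and 0.47). Of 8 cDC1 genes 7 lay above 0 and 0 were called, with a median of 1.80, and Irf8, Naaa and Wdfy4 count in both lists.

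The selected cells were also compared with B cells of mice #31 and #33, the BCR nodules with at least 10 cells of each class. Of 11716 genes tested with the mouse as a block, 629 passed an adjusted p of 0.05 by edgeR (5.37% called), 360 higher (3.07%) and 269 lower (2.30%). DESeq2 called 366 higher and 77 lower. The median of all genes was -0.62 on the log2 scale by the main scaling and -0.33 by DESeq2, so a gene near these values did not move against the rest. With 2 mice no library could be left out, and without the block only 22 genes passed. The p-values of this comparison rest largely on variance estimates shared across genes and measure little of a spread over 2 mice. B cells were defined by Cd79a, Cd79b and Ms4a1, whose absence the rule demands, and lower B cell genes go with that choice.

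All 8 shared dendritic cell genes rose, with a median of 4.10. Cst3 was at 15860.2 and 12034 CPM in the selected cells against 82.9 and 125 in B cells (log2 fold change 6.88, SE 0.39, adjusted p = 7.4e-66). Plbd1 rose by 10.38, Itgax by 7.44 and Naaa by 5.94, while Wdfy4 (2.25, adjusted p = 0.00183) and Irf8 (1.52, adjusted p = 0.0179), which B cells use too, rose less. The expression of these genes by dendritic cells is well known, and they here served to check the label.

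Of 12 further cDC1 genes 10 rose and 1 fell. Irf8, Naaa and Wdfy4 are among the 10 and were already counted with the shared genes above. The largest among those of known role were Cd8a (8.12), Itgae, the CD103 chain (6.54), Batf3 (6.52), the double-stranded RNA sensor Tlr3 (4.73) and Cadm1 (3.55). The gene that fell was Cd24a (-1.87, adjusted p = 0.0112). Of 4 cDC2 genes tested 0 passed, and of 10 plasmacytoid genes 1 rose, Ccr9, a chemokine receptor of gut homing (6.51), and 1 fell, Tcf4 (-1.87, adjusted p = 0.0137). That many cDC1 genes rose beside 3.07% over all genes goes with the choice of the cells, as 18 of the 25 had Xcr1 or Clec9a.

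Antigen presentation genes were unevenly higher. Of 10 MHC class II genes 5 rose and 1 fell, with a median of 1.13. H2-Ab1 was at 5443 and 5884 CPM against 1346 and 1208 in B cells (1.94, SE 0.34, adjusted p = 5.95e-07), Cd74 rose by 1.36 (SE 0.28, adjusted p = 6.97e-05), H2-Eb1 by 1.92 and H2-Aa by 1.53. The peptide-loading genes went apart, as H2-DMb1 rose by 3.44 and H2-DMb2, at 48.6 and 250 CPM against 449 and 365, fell by 1.80 (SE 0.55, adjusted p = 0.0253). Of 8 costimulatory genes 1 rose, Cd86, at 470 and 986 CPM against 139 and 308 (1.51, SE 0.46, adjusted p = 0.0237), and Cd80 did not pass (0.95, adjusted p = 0.554). Of 7 inhibitory genes 2 rose, Havcr2 by 8.11 and Cd274 by 3.82.

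Chemokine, cytokine and receptor genes that rose included several described above. Of 11 chemokine genes 6 rose, among them Cxcl9 (9.70), Cxcl16 (8.38), Cxcl2 (6.16), Ccl4 (4.79) and Cxcl10 (3.02). Of 10 cytokine genes 2 rose, Il12b (9.31), of which 22 UMIs lay in 1 cell, and Il1b (8.54). Of 9 growth factor receptor genes 4 rose, Kit by 10.41, Csf2rb by 5.47, Csf2ra by 3.32, both chains of the GM-CSF receptor, and Ifngr1, a chain of the interferon γ receptor, by 2.22. Kit had 26 UMIs in 10 of 14 cells of mouse #33 and 5 UMIs in mouse #31. Of 10 interferon-response genes 0 passed, and of 10 proliferation genes 2 fell, Mki67 by 3.38 and Top2a by 2.93.

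By the rule of largest change, the genes that rose were Gpr141b, Klri1, Ifi205, Zfp366, Kit, Plbd1, Klrb1b, Ptpro, Procr and Qpct. Gpr141b, an orphan receptor gene, was at 194 and 136 CPM against 0 in both B cell sums, at least 4998-fold higher. Klri1, a killer cell lectin-like receptor gene, was at 308 and 167 CPM against 1 UMI in all B cells of both mice. Ifi205 rose by 11.41 on the log2 scale, Zfp366, which encodes the dendritic cell transcript DC-SCRIPT, by 10.60, Klrb1b by 10.09, Ptpro by 10.04, Procr, the protein C receptor, by 9.95, and Qpct by 9.94. Klrb1b rests mainly on mouse #33, with 34 UMIs in the selected cells against 1 in mouse #31. Ptpro had 11 and 3 UMIs in these mice. Ifi205 was at 551, 705 and 285 CPM in mice #31, #33 and #30 against 58.7 in mouse #32, where 31 UMIs lay in the cell with 4 of the rule's markers. Among the genes that fell were Vpreb3, at least 19.0-fold lower, Blnk, a B cell receptor adaptor (13.0-fold), Tnfrsf13c, the BAFF receptor (11.8-fold), Cxcr5, the follicular homing receptor (8.03-fold), and Pax5, the B lineage factor (6.04-fold), each with 0 UMIs in the selected cells and set against the floor of 15.5 CPM. The others were AC133103.1 (13.1-fold), Dab1 (11.1-fold), Ctse (10.6-fold), Gimap7 (8.98-fold) and St3gal6 (6.37-fold). These 10 genes had no UMI in the selected cells of either mouse. The bounds use the mean of the B cells of both mice. In B cells Tnfrsf13c was at 13.4 CPM in mouse #31 and 353 in mouse #33, and Dab1 at 335 and 9.57. The lower value of each lay below the floor, so these bounds rest on 1 mouse.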

How the data were processed

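Per the study's methods and labels, the authors aligned single-cell reads to the mouse genome and deposited raw UMI counts per gene and cell for 32285 genes. The RNA chemistry (3′ or 5′) is described differently in the sources used here. 77442 deposited cells were reduced to 75548 with at most 10% mitochondrial UMIs. No doublet caller was run. The selected cells, the gene lists and the rule for named genes (in each direction the 10 called genes with the largest change, alike in every mouse, with a mean of at least 20 CPM in the higher class, beside genes of the lists) were chosen with earlier results of these data known. B cells, T cells and macrophages were the cells with at least 2 of their 3 excluded genes, none of the other 2 sets and fewer than 2 of the rule's markers. A cell carried another class when at least 3 genes of a list for that class were detected, and more than of the 8 shared dendritic cell genes. UMI counts were summed per mouse and class (at least 10 cells) and tested with edgeR 4.0.16 (R 4.3.3, TMM, filterByExpr, quasi-likelihood, Benjamini-Hochberg adjustment) without the rule's genes, with the mouse as a block in comparisons of classes, since both classes came from the same mouse. DESeq2 1.42.0 was an alternative. CPM is the usual scaling to a common total of UMIs. Shares used exact permutation tests and Clopper-Pearson 95% intervals (scipy 1.17.1), with a floor of 3 counts. Counts were also simulated with the dispersion, the variance beyond counting error, fixed at 0.2 and not estimated from these sums. In them, 8-fold and 32-fold changes were recovered in 69.8% and 98.8% of cases between receptor groups. The values were 77.8% and 95.2% against macrophages, and 23.2% and 54% against B cells. Whether the real sums vary to that degree was not tested, so these are no measure of power here. Each mouse is 1 library, so the exact tests measure the spread between mice. The edgeR and DESeq2 p-values also draw on variance estimates shared across genes. Against B cells they are no measure of the spread between mice alone.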

Additional observations from a re-analysis of the deposited data

Results flagged for a closer look

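The share of Eif3e among eIF3 UMIs in the selected cells of mouse #29, 22.2%, stood apart from the other mice of the BCR group, and it rests on 2 of 9 UMIs in a single cell. Among B cells of the BCR group, the 7.40% with a Zbtb46 UMI in mouse #33 stood apart from the 0.548 to 2.37% in the others. Chance sets a sample apart in this way in about 1 in 20 groups. The log2 ratio of the Eif3e share in selected cells to that in B cells was -0.36 in mouse #31 and -0.13 in mouse #33 and 1.07 in mouse #30, a difference of 1.32 between the TCR mouse and the BCR mice that was not tested. The value of mouse #30 rests on 8 of 191 UMIs in selected cells and 7 of 352 in B cells.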

How the results depend on the processing

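Counts of called genes depended on the tool and the mice. Between receptor groups, DESeq2 called 9 genes, the absence of a low-count filter 76, and leaving out 1 mouse gave 0 to 37. Against macrophages the counts were 180, 393 and 0 to 122. Without the replicate block, which pairs classes of the same mouse, 52 genes passed against macrophages and 22 against B cells, in place of 78 and 629. On the CPM scale the log2 Eif3e ratio reversed to -0.29 against B cells and 0.29 against macrophages. Leaving out 1 mouse moved it from -0.24 to 0.47 and from -0.43 to 0.15. The difference in the share of mature cells was 0 with at least 3 markers or with thinned cells, 3.85 percentage points without cells of another class, and 0 to 3.03 with 1 mouse left out. Against macrophages, log2 fold changes reversed without cells of another class (Cd74 0.35, H2-Ab1 0.57, Plbd1 0.47), without mouse #32 (0.83, 1.10, 1.02, and Cd86 0.58) and without the block (0.31, 0.55, 0.40). With 1 mouse left out the ranges were -1.37 to 0.83 for Cd74, -1.23 to 1.10 for H2-Ab1, -1.26 to 1.02 for Plbd1 and -2.72 to 0.58 for Cd86. Between receptor groups they were -0.23 to 5.40 for Ccl4 and -0.71 to 6.56 for Ifit2, reversed without mouse #30 in both. The cause was not tested. Of 29 named genes called against macrophages, none kept its call in all alternatives, and of 56 called against B cells 8 did. Fits with at least 20 cells per sum could not be run. With 76 cells, several nodules gave no measure of gene levels. The fold bounds without mouse #32 were chosen after seeing the data.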
